A study of Mus musculus with 8 samples.

Results

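The genes of the TNF superfamily, ligands of the tumor necrosis factor type and their receptors, were followed in the distal trachea and carina of old and young mice. Members were chosen by gene symbol: every probe set whose only symbol on the platform is a numbered Tnfsf or Tnfrsf name, or is Tnf, Cd40, Cd40lg, Cd27, Cd70, Fas, Fasl, Eda2r, Edar or Relt. This gave 60 of 45037 probe sets and 37 of 18172 genes, made up of 11 ligands, 25 receptors and 1 non-coding RNA, Tnfsf13os, whose symbol meets the rule although it is neither. The symbols alone decide membership, although the list, and the pair of genes shown with all probe sets, were set with earlier results of these data known. Each gene was represented by its brightest probe set, and every probe set is given for that pair, Tnfrsf12a and Tnfrsf1b.

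The ligands of this family are mostly trimers held in the membrane or shed from it, and they act by clustering receptors on the target cell. Receptors with a death domain, such as Fas, TNF receptor 1 and the TRAIL receptor, can start apoptosis. Many receptors of the family recruit TRAF adaptors and lead to NF-kappaB and kinase signaling, and some, such as osteoprotegerin, are decoys. In the airway wall the family is known for inflammation, for the survival of B cells and plasma cells, for costimulation of T cells and for the turnover of injured epithelium.

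Gene expression was measured on 8 Affymetrix Mouse Genome 430 2.0 arrays, each hybridised with the distal trachea and carina RNA of 1 female C57Bl/6 mouse. The 4 old mice were 14 months of age and are numbered 1, 2, 5 and 6 in the labels, and the 4 young mice were 2 months of age and are numbered 3, 4, 7 and 8. The labels name no treatment, transgene or engineered allele in either group. Values are signals in arbitrary units on a linear scale, and the median signal of an array lay between 150.0 and 161. The number of arrays limits the precision. The p-values measure the spread between these mice, and the changes are log2 signal of old minus young with standard error (SE), from limma with Benjamini-Hochberg adjustment over all 18172 genes unless stated otherwise. Airway epithelial markers were bright in every mouse: their summed signal lay between 59137 and 68014 in old mice and between 59659 and 65214.5 in young mice, with Scgb1a1, the club cell secretory protein, at 25658 or above on all 8 arrays. Old mouse 6 stood apart in Rag1, a recombinase of immature lymphocytes, at 429 against 46.2 or less in each of the other 7 mice. Old mice 1 and 5, at 46.2 and 17.5, were also above every young mouse, at 2.80 or less, and old mouse 2 gave 2.19. Its summed thymus markers, which include Rag1, were 976 against 370.2 to 540.3 in those 7. The rest of that list was mixed: old mouse 6 was the highest of all 8 mice for Dntt (150) and Cd8b1 (63.7). Cd8b1 was 25.35 and 25.5 in old mice 1 and 5 and 7.61 in old mouse 2, against 16.9 or less in the young mice. For Foxn1 (93.4) and Aire (57.1) it was the lowest of the old mice. Members in which old mouse 6 was the extreme of its group among the called or non-overlapping receptors are therefore also given without it. Leaving it out does not remove the Rag1 signal of old mice 1 and 5.

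At an adjusted p under 0.05, 2 members rose in old mice, the receptors Tnfrsf12a and Tnfrsf1b, and 0 fell. Among all genes tested 0.336% were called higher and 0.176% lower by the same rule, and the 2 members are 5.41% of the family. The study's methods used a fold above 2 together with an unadjusted p under 0.05, and these thresholds called 3 members higher, Tnfrsf12a, Tnfrsf17 and Tnfsf11, or 8.11% of the family, against 1.02% of all genes. They called 0 members lower, against 0.589% of all genes. By an unadjusted p under 0.05 alone, 9 members came out higher (24.3%, against 7.23% of all genes) and 2 were lower (5.41%, against 7.29%). In 8 members all old mice lay above all young mice (21.6%, against 4.95% of all genes), and in 0 members every old mouse lay below (against 5.11%). These 8 were the ligands Tnfsf9, Tnfsf10, Tnfsf11 and Tnfsf13b and the receptors Tnfrsf12a, Tnfrsf13b, Tnfrsf17 and Tnfrsf1b. For each of them the exact permutation p was 0.0286, two-sided, the smallest that 4 against 4 mice allow.

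The log2 fold change was positive in 28 of the 37 members and negative in 9, with a median of 0.23. Over all genes 48.95% were positive and the median was -0.005. Of the ligands 7 of 11 were positive, with a median of 0.23, and of the receptors 20 of 25, with a median of 0.26. In 7 members both age groups had a mean signal under 64, and in 3 of them under 32. Signals that dim scatter widely between mice, and the deposited values hold no detection call. Of the 17 members with several probe sets, 10 had probe sets whose fold changes differed in sign.

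**Figure D1:**
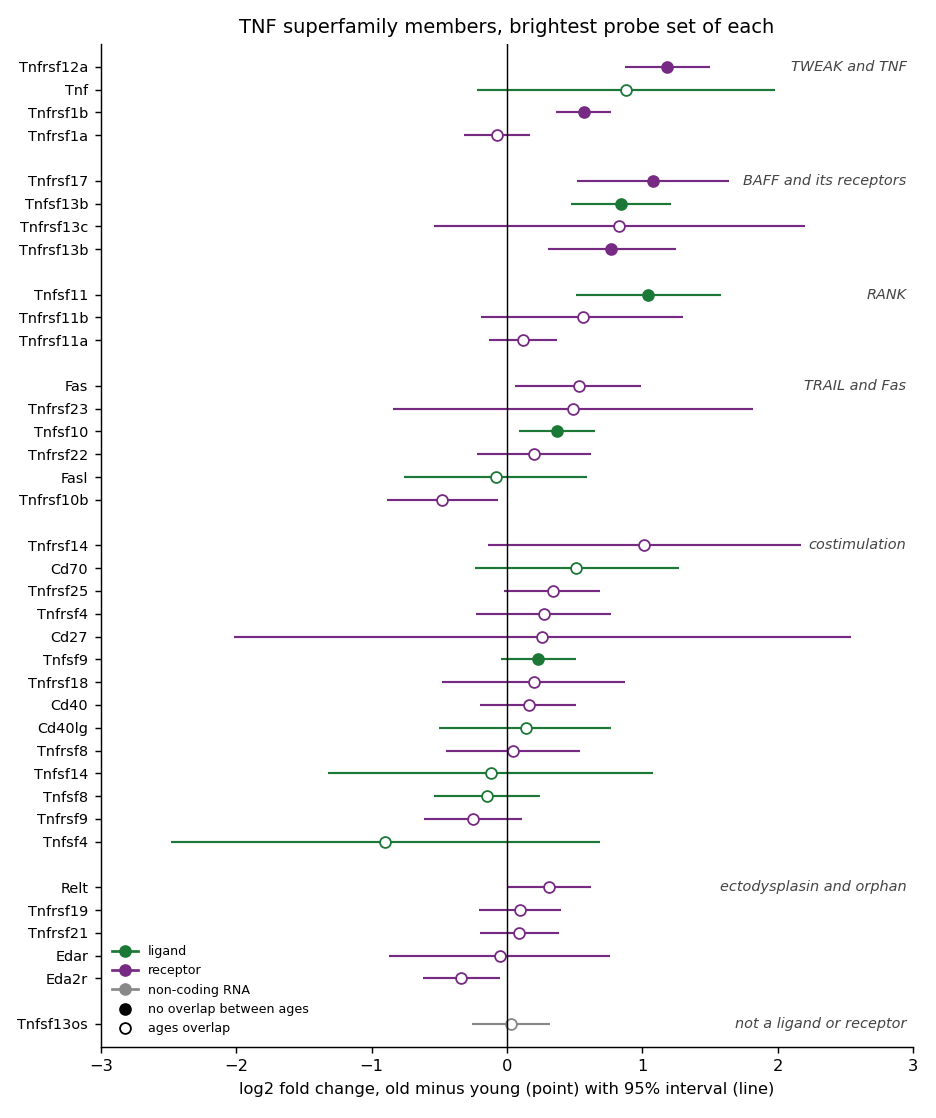
Log2 fold change of old minus young mice (x axis) for each of the 37 members (y axis, grouped by signaling axis), with points for the estimate and lines for its 95% interval from limma. Ligands are green, receptors purple and the non-coding RNA grey. Filled points mark the 8 members whose 4 old mice all lay above the 4 young mice, among them 3 of the 4 BAFF axis members, and 28 of the 37 points lie to the right of 0.

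Tnfrsf12a encodes Fn14, the receptor of the ligand TWEAK, a small TRAF-binding receptor that is induced in injured and remodeling tissue. The signal of its brighter probe set, 1418572_x_at, was 687, 629.8, 647 and 470.0 in old mice 1, 2, 5 and 6, and 258, 236, 291 and 279 in young mice 3, 4, 7 and 8. Every old mouse was above every young mouse, and old mouse 6 was the lowest of the old. The means were 608 ± 95.3 and 266 ± 24.0 (SD, n = 4 each), a ratio of 2.29, and the gene rose by 1.18 on the log2 scale (SE 0.13, 95% interval 0.87 to 1.50, limma adjusted p = 0.0263).

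The other probe set of Tnfrsf12a, 1418571_at, separated the ages further. Its signal was 657.5, 600.2, 652 and 351 in old mice 1, 2, 5 and 6, and 124, 117, 130.1 and 136 in young mice 3, 4, 7 and 8. The 4 young mice lay close together, at 127 ± 8.02 (SD, n = 4), and the old mice again had number 6 as the lowest, at a mean of 565 ± 145. The log2 fold change was 2.12 (SE 0.21, 95% interval 1.63 to 2.60), with an adjusted p of 0.0332 over all 45037 probe sets. In that fit the brighter probe set had an adjusted p of 0.0531. Identifiers ending in _x_at mark probe sets that can share sequence with other transcripts. The direction was the same whichever mouse was left out, with a log2 fold change of the brighter probe set between 1.12 and 1.30. Its adjusted p was 0.015 without old mouse 6 and between 0.0628 and 0.0834 without any 1 of the other 7 mice. The call was lost in those 7 fits. Over all genes the number called higher also fell in them, from 61 to between 5 and 20.

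Tnfrsf1b encodes TNF receptor 2, which lacks a death domain and is found mainly on lymphocytes, myeloid cells and endothelium. Its brighter probe set, 1418099_at, gave 517, 453.5, 451 and 497 in old mice 1, 2, 5 and 6, and 329, 355, 322 and 289 in young mice 3, 4, 7 and 8. The ages did not overlap, and the lowest old mouse was clear of the highest young mouse. The means were 479.5 ± 32.6 and 324 ± 27.3 (SD, n = 4 each), and the gene rose by 0.57 on the log2 scale (SE 0.088, 95% interval 0.36 to 0.77, limma adjusted p = 0.0499). The call lay at the threshold: the adjusted p was between 0.0938 and 0.133 when any 1 of the 8 mice was left out, 0.0678 with the mouse numbers 1 to 4 and 5 to 8 as a block, and 0.11 over all probe sets.

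The second Tnfrsf1b probe set, 1448951_at, was dimmer and did not separate the ages. It gave 74.5, 101, 46.8 and 104 in old mice 1, 2, 5 and 6, and 82.4, 96.2, 90.1 and 48.5 in young mice 3, 4, 7 and 8, so that both groups covered the same range. Its log2 fold change was 0.02 (SE 0.32, 95% interval -0.72 to 0.76, adjusted p = 0.99 over all probe sets), an interval that also holds the estimate of the brighter probe set. Averaging both probe sets gave 0.29 for the gene, with an adjusted p of 0.573.

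**Figure D2:**
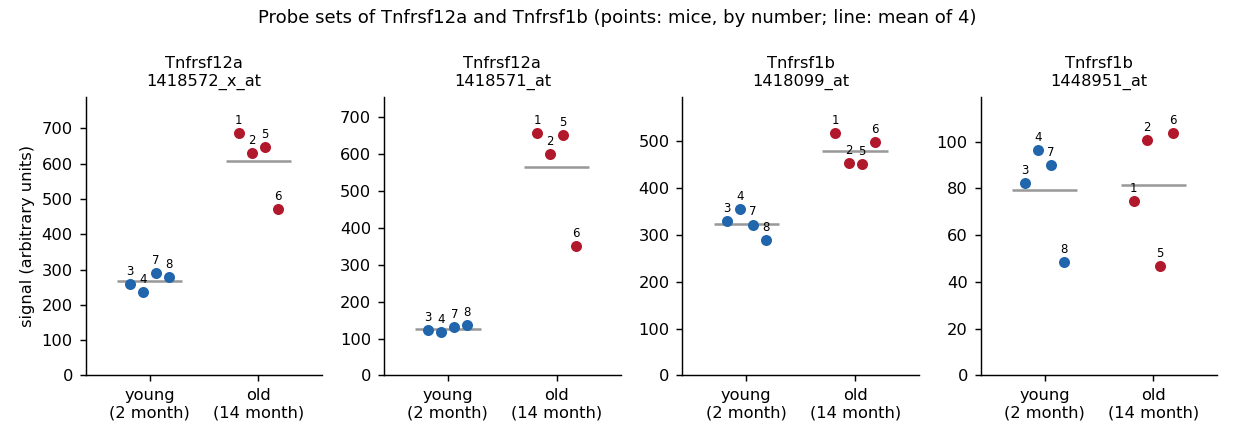
Signal (y axis, arbitrary units, from 0) of both probe sets of Tnfrsf12a and of Tnfrsf1b in each young and old mouse, with the mouse number at each point and a line at the mean of 4 mice. In both Tnfrsf12a probe sets all old mice lie above all young mice, while the Tnfrsf1b probe set 1448951_at has overlapping ages.

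The partners of these receptors were measured in part. Tnf, the ligand of both TNF receptors, gave 49.5, 80.8, 34.9 and 28.5 in old mice 1, 2, 5 and 6, and 57.1, 19.3, 16.6 and 18.9 in young mice 3, 4, 7 and 8. Young mouse 3 lay within the old range, and the log2 fold change was 0.88 (SE 0.47, 95% interval -0.22 to 1.98, limma adjusted p = 0.445). Tnfrsf1a, the death domain TNF receptor that most cells carry, gave 1443, 1393, 1572 and 1284 in the old mice and 1711, 1575, 1319 and 1414.5 in the young mice, in the same order. The ages overlapped throughout, at a log2 fold change of -0.08 (SE 0.11, 95% interval -0.32 to 0.17, limma adjusted p = 0.796). Tnfsf12, which encodes TWEAK, is named only on probe sets with several symbols and was not analysed here.

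Fewer cells of a type and less RNA per cell cannot be told apart in whole tissue. Leukocyte markers were also higher in the old group. The summed signal of 4 general leukocyte genes lay between 4404 and 6410 in old mice and between 3011 and 3966.5 in young mice. Of these genes 4 of 4 were higher at an unadjusted p under 0.05, beside 7.23% of all genes. Among the old mice, number 1 had the lowest sum and the highest Tnfrsf12a, and number 6 the highest sum and the lowest Tnfrsf12a. Tnfrsf1b was 517 and 497 in old mice 1 and 6, and 453.5 and 451 in old mice 2 and 5. Of 9 myeloid markers (10 listed) 9 were positive, and 5 were higher at an unadjusted p under 0.05 (7.23% of all genes were). In 5 all old mice lay above all young mice (4.95% of all genes). Among these were the integrin Itgax at a log2 fold change of 0.93 (SE 0.19) and the Fc receptor Fcgr3 at 0.74 (SE 0.17). Most of the summed myeloid signal came from the lysozyme gene Lyz2 at 0.01 (SE 0.08). The sum lay between 32057.5 and 37387 in old mice and between 29995 and 32842 in young mice. Fibroblast markers were mixed. Their summed signal lay between 50358 and 56421 in old mice and between 58481 and 65717.5 in young mice. Of the 6 genes 3 were lower at an unadjusted p under 0.05, beside 7.29% of all genes. These were the collagen genes Col1a1 at -1.58 (SE 0.32) and Col1a2 at -0.58 (SE 0.09, limma adjusted p = 0.047), and Pdgfrb at -0.31 (SE 0.10). Pdgfra gave -0.06 (SE 0.10), Dcn -0.07 (SE 0.08) and Lum 0.01 (SE 0.13). Genes of handling and stress responses moved as well. The summed signal of 16 immediate early genes, such as Fos, lay between 31019 and 51233 in old mice and between 21996 and 28666 in young mice, and that of 5 heat shock genes between 36178.5 and 49085 and between 20239.7 and 24353. The part of leukocytes, of fibroblasts and of these responses in the change of Tnfrsf12a and Tnfrsf1b was not tested.

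The reference promoters of both called receptors are shown because both genes rose, as the 250 bases before the annotated start in RefSeq on mouse build GRCm38.p6, 5′ to 3′ on the strand of the gene. Capitals mark matches to the GC box GGGCGG in Tnfrsf12a and to the interferon response motif in Tnfrsf1b, spelled GAAA, any 2 bases and GAAA, on either strand.
Tnfrsf12a, chr17:23677450-23677699, minus strand: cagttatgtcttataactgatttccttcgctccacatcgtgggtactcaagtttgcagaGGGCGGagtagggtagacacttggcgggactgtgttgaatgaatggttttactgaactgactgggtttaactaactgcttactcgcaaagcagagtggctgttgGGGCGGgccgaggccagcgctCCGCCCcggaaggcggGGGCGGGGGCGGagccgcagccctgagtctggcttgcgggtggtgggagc
Tnfrsf1b, chr4:145246871-145247120, minus strand: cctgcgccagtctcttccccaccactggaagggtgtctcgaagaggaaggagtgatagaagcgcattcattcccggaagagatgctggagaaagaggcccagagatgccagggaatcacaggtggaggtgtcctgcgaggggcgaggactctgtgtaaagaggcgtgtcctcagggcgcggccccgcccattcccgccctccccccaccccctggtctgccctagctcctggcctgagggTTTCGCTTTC
The Tnfrsf12a window held 5 matches to GGGCGG, of which the pair near the start lie side by side, and 0 to the interferon response motif. GGGCGG occurred in 15 of the 28 member genes with a promoter entry and in 32.7% of the 32851 promoters of all genes. In Tnfrsf1b the single match to the interferon response motif lies on the opposite strand at the very end of the window. The Tnfrsf1b window also held GGGCGG on either strand, at bases -67 to -62 and -57 to -52 counted back from the start. These are left in lower case.

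The BAFF axis had 4 members, of which 3 had an unadjusted p under 0.05, all higher in the old group (7.23% of all genes were), and 0 an adjusted p under 0.05. BAFF is made mainly by myeloid and stromal cells and keeps mature B cells alive through its receptor BAFF-R, while TACI and BCMA serve activated B cells and plasma cells. Tnfsf13b, which encodes BAFF, gave 612, 581, 700.5 and 648 in old mice 1, 2, 5 and 6, and 282, 307, 453 and 396 in young mice 3, 4, 7 and 8. All old mice were above all young mice, and within the young group mice 7 and 8 lay above mice 3 and 4. The means were 635 ± 51.4 and 359.8 ± 79.2 (SD, n = 4 each), and the log2 fold change was 0.84 (SE 0.16, 95% interval 0.47 to 1.21, limma adjusted p = 0.0794). With the mouse numbers 1 to 4 and 5 to 8 as a block, the same estimate had an adjusted p of 0.0463. A second probe set of Tnfsf13b, 1445251_at, gave 266, 303, 321 and 311 in the old mice and 207, 248, 221 and 215 in the young mice, also without overlap, at a log2 fold change of 0.43 (SE 0.10, adjusted p = 0.192 over all probe sets). The last probe set, with signals between 2.42 and 5.42, was too dim to rank the ages.

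Tnfrsf17 encodes BCMA, the receptor of long-lived plasma cells. Its signal was 109, 111, 89.3 and 157 in old mice 1, 2, 5 and 6, and 53.1, 37.3, 73.3 and 58.6 in young mice 3, 4, 7 and 8. No young mouse reached the lowest old mouse, and old mouse 6 was the highest of all. The means were 117 ± 28.5 and 55.6 ± 14.9 (SD, n = 4 each), and the log2 fold change was 1.08 (SE 0.24, 95% interval 0.52 to 1.64, limma adjusted p = 0.111). Without old mouse 6 it was 0.93, with an adjusted p of 0.175.

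Tnfrsf13b encodes TACI, which binds both BAFF and APRIL. It gave 208, 184, 219 and 335 in old mice 1, 2, 5 and 6, and 157, 149.7, 129 and 109 in young mice 3, 4, 7 and 8. The ages did not overlap, and old mouse 6 again stood above the other old mice. The log2 fold change was 0.77 (SE 0.20, 95% interval 0.30 to 1.25, limma adjusted p = 0.156), and 0.59 with an adjusted p of 0.175 without old mouse 6. Tnfrsf13c, the BAFF receptor of mature B cells, was dim, at 25.4, 54.1, 41.4 and 56.0 in the old mice and 7.88, 20.1, 37.4 and 53.4 in the young mice. These ranges overlapped, and the log2 fold change of 0.83 had a wide interval (SE 0.59, -0.54 to 2.20, limma adjusted p = 0.575). Tnfsf13, which encodes APRIL, shares its probe sets with other symbols and was not analysed here.

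B cell markers as a sum were also higher in old mice, and the sum was highest in old mouse 6. The summed signal of 9 B cell markers (of 10 listed) was 976, 848, 1109 and 1556 in old mice 1, 2, 5 and 6, and 677, 714, 656 and 617 in young mice 3, 4, 7 and 8. In this list 5 of 9 genes were higher at an unadjusted p under 0.05, beside 7.23% of all genes, and the median log2 fold change was 0.58. The others were Cd79a at 2.14 (SE 0.93), Pax5 at 0.26 (SE 0.23), Fcrla at 0.25 (SE 0.20) and Fcer2a at -0.03 (SE 0.29). Jchain, which joins secreted IgA and IgM in plasma cells, gave 3735, 8120.2, 6840.1 and 14016 in the old mice and 261, 481, 127 and 730.3 in the young mice. Neither the summed B cell markers nor Jchain overlapped between ages, and in both old mouse 6 was the highest. The plasma cell list as a whole was mixed. Of its 8 genes other than Jchain 4 had an unadjusted p under 0.05, all higher (7.23% of all genes were), with a median of 0.22. Sdc1 gave 0.10 (SE 0.12), Irf4 -0.05 (SE 0.24), Edem1 0.04 (SE 0.14) and Derl3 0.17 (SE 0.15). The summed signal of all 9 lay between 20089.5 and 31974 in old mice and between 14194 and 15745 in young mice. Much of this sum was Xbp1, at 8380.6 or above on each array and a log2 fold change of 0.26 (SE 0.09), with Sdc1 and, in old mice, Jchain. The part of B lineage cell number in the BAFF axis was not tested.

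**Figure D3:**
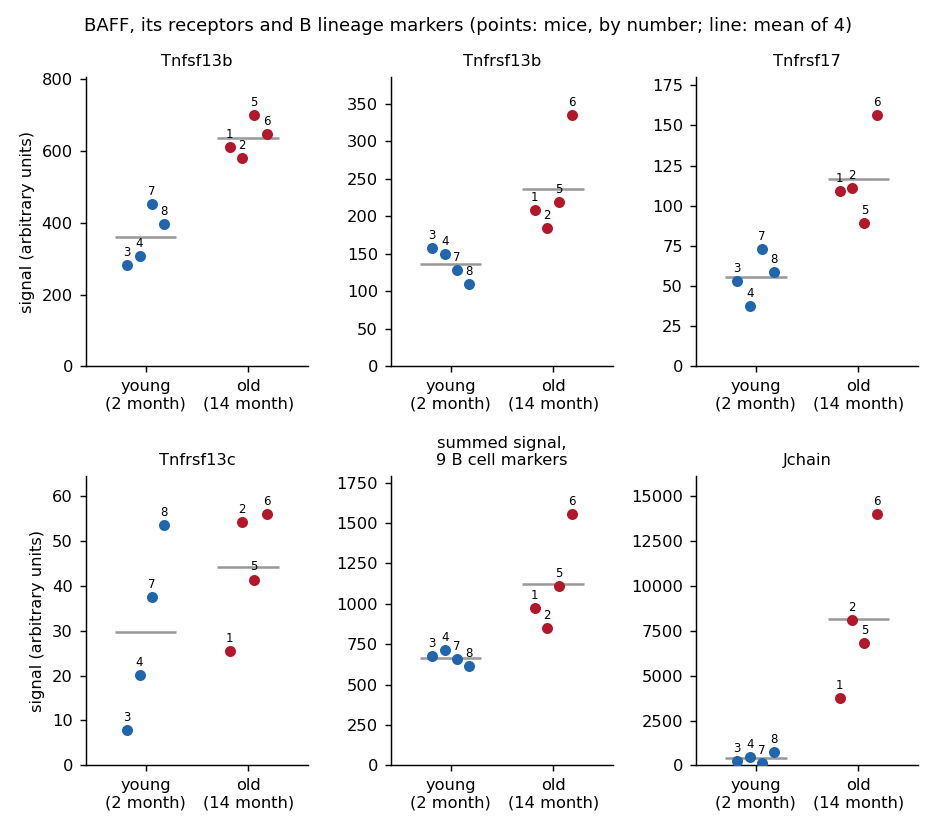
Signal (y axis, arbitrary units, from 0) of BAFF (Tnfsf13b), its receptors, the sum of 9 B cell markers and Jchain in each young and old mouse, with the mouse number at each point and a line at the mean of 4 mice. In Tnfsf13b, Tnfrsf13b, Tnfrsf17 and both marker panels all old mice lie above all young mice, and old mouse 6 is the highest in every panel but that of Tnfsf13b.

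Promoters of the ligand and of BCMA are shown because both held the interferon response motif that was also in Tnfrsf1b. They are the 250 bases before the start in RefSeq on GRCm38.p6, on the strand of the gene, with that motif or its reverse complement in capitals.
Tnfsf13b, chr8:10006383-10006632, plus strand: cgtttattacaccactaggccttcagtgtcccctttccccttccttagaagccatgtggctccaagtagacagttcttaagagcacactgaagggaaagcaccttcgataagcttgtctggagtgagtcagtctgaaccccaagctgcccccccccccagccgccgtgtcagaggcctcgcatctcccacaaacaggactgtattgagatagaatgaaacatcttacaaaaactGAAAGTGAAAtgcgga
Tnfrsf17, chr16:11313559-11313808, plus strand: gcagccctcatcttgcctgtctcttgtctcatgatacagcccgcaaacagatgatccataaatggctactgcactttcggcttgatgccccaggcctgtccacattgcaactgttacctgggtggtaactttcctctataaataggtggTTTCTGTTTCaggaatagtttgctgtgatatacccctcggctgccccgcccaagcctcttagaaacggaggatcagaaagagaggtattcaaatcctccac
Tnfsf13b has 2 annotated starts, and the motif is before the one shown. Of 28 member genes with a promoter entry, 4 held it on either strand: Tnfsf13b, Tnfrsf17, Tnfrsf1b and Tnfrsf14. These are 4 of 32 member promoters, against 2.98% of the promoters of all genes. Tnfrsf14 was dim, with signals between 3.72 and 21.0, and overlapped between ages. Tnfrsf12a, Tnfrsf13b, Tnfsf10 and Tnfsf11, which did not overlap between ages, had entries without the motif. An NF-kappaB motif was found in 2 members, Tnfrsf8 and Tnfrsf9, against 3.9% of all promoters. The other motifs searched were the AP-1 motif TGANTCA (5 members, 6.75% of all promoters), TTCNNNGAA of STAT factors (6, 7.02%), TGACGTCA (0, 1.55%), TATAAA (5, 12.4%) and an SRF motif (1, 1.47%). A match describes letters and not a bound site.

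RANKL, its receptor RANK and the decoy receptor osteoprotegerin form the next axis, known from bone and from lymphoid tissue, where RANKL takes part in the forming of lymph nodes. Tnfsf11, which encodes RANKL, gave 88.4, 102, 125 and 112 in old mice 1, 2, 5 and 6, and 51.0, 35.8, 77.4 and 49.98 in young mice 3, 4, 7 and 8. Every old mouse was above every young mouse, although the highest young mouse came near the lowest old mouse. The means were 107 ± 15.5 and 53.5 ± 17.3 (SD, n = 4 each), and the log2 fold change was 1.04 (SE 0.23, 95% interval 0.51 to 1.58, limma adjusted p = 0.109). A second probe set, 1451944_a_at, was dim and overlapped between ages, at 0.65 (SE 0.41).

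The receptors of RANKL overlapped between ages; whether they differed from the ligand in this was not tested. Tnfrsf11a, which encodes RANK, gave 359, 317, 329 and 297 in old mice 1, 2, 5 and 6, and 339, 315, 294 and 254 in young mice 3, 4, 7 and 8, at a log2 fold change of 0.12 (SE 0.11, 95% interval -0.13 to 0.37, limma adjusted p = 0.671). Tnfrsf11b, which encodes osteoprotegerin, gave 368, 668.5, 375 and 311 in the old mice and 165, 319, 372 and 312 in the young mice, at 0.56 (SE 0.32, 95% interval -0.19 to 1.30, limma adjusted p = 0.474). In Tnfrsf11b 1 old mouse was far above and 1 young mouse far below the other 6. Of 4 lymph node markers (5 listed) 1 was higher at an unadjusted p under 0.05, beside 7.23% of all genes. This was Cxcl13, a chemokine that draws B cells into follicles, at 1.18 (SE 0.21, limma adjusted p = 0.0699). The vessel genes of the list gave -0.02 (Madcam1, SE 0.32), -0.12 (Chst4, SE 0.36) and 0.28 (Glycam1, SE 0.24, with signals of 5.44 or less), and the list's median was 0.13. The summed signal, mostly Cxcl13, lay between 582 and 934 in old mice and between 298 and 482 in young mice. The part of lymphoid tissue in the RANKL signal was not tested.

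TRAIL and Fas are the death arm of the family, with 6 members of which 2 were higher and 1 was lower at an unadjusted p under 0.05, beside 7.23% and 7.29% of all genes. Tnfsf10, which encodes TRAIL, gave 336, 395.5, 363 and 348 in old mice 1, 2, 5 and 6, and 332, 297, 263 and 232 in young mice 3, 4, 7 and 8. The ages just failed to overlap, and the log2 fold change was 0.37 (SE 0.12, 95% interval 0.09 to 0.65, limma adjusted p = 0.228). Its other probe sets gave 0.27 and -0.06 with overlapping ages. Tnfrsf10b, the death receptor of TRAIL, was dim, at 64.4, 61.6, 52.6 and 50.01 in the old mice and 74.1, 81.1, 107 and 61.1 in the young mice. Its log2 fold change was -0.48 (SE 0.18, 95% interval -0.89 to -0.07, limma adjusted p = 0.278), only 2 old mice lay below all young mice, and its second, dimmer probe set gave 0.78.

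Fas, the death receptor through which T cells remove target cells, gave 747, 710.2, 459 and 597 in old mice 1, 2, 5 and 6, and 353, 377, 453.5 and 559.5 in young mice 3, 4, 7 and 8. In 3 of 4 old mice the signal was above all young mice, and old mouse 5 lay within the young range. The log2 fold change was 0.53 (SE 0.20, 95% interval 0.06 to 0.99, limma adjusted p = 0.288). Its ligand Fasl, at signals between 21.1 and 53.9, gave -0.08 (SE 0.29). Tnfrsf22 and Tnfrsf23, decoy TRAIL receptors of the mouse without a working death domain, gave 0.20 (SE 0.18) and 0.49 (SE 0.57), and in both the ages overlapped.

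**Figure D4:**
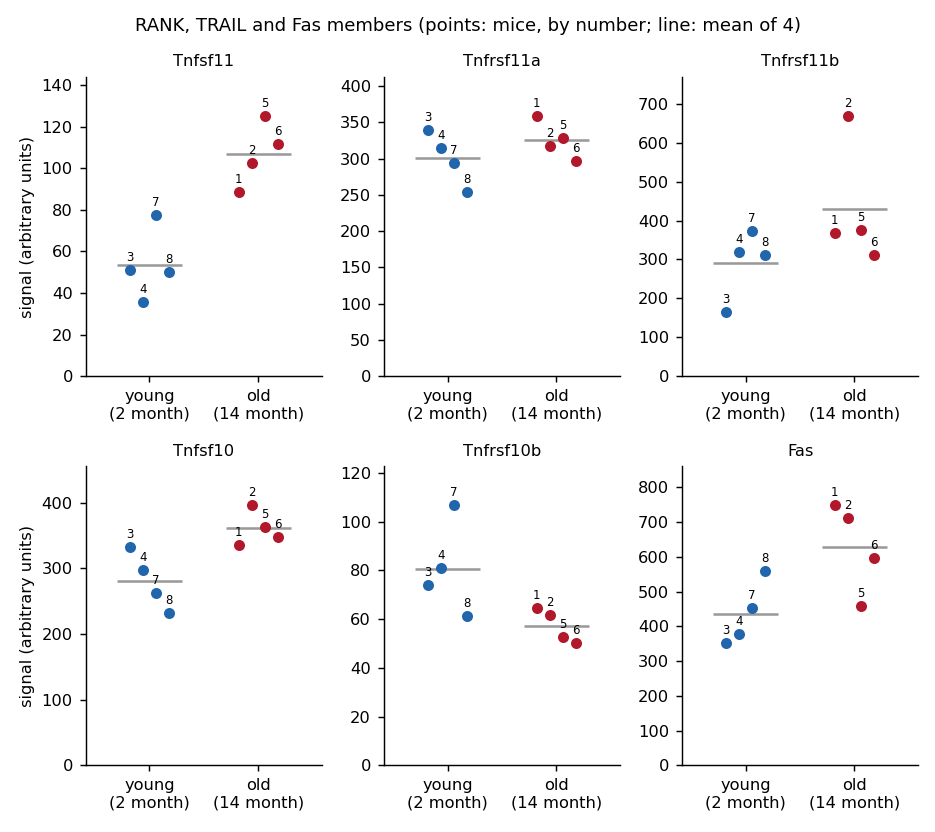
Signal (y axis, arbitrary units, from 0) of members of the RANK axis (Tnfsf11, Tnfrsf11a, Tnfrsf11b) and of the TRAIL and Fas axis (Tnfsf10, Tnfrsf10b, Fas) in each young and old mouse, with the mouse number at each point and a line at the mean of 4 mice. The ligands Tnfsf11 and Tnfsf10 have no overlap between ages, while the 4 receptors overlap.

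The costimulatory pairs of lymphocytes were the largest group, with 14 members. Of these 0 reached an unadjusted p under 0.05, where 7.23% of all genes were higher and 7.29% lower, and with so few members this is not read as a result about the group. Log2 fold changes ran from -0.90 for Tnfsf4, the ligand of OX40 (SE 0.68, 95% interval -2.48 to 0.69), to 1.01 for Tnfrsf14, the receptor HVEM (SE 0.50, 95% interval -0.14 to 2.17), both from probe sets that scattered widely between mice. The smallest p was 0.0602, for Tnfrsf25, the T cell receptor DR3, at 0.34 (SE 0.15). Tnfsf9, the ligand of 4-1BB, was the only member of this group without overlap: it gave 177, 202, 183 and 174 in old mice 1, 2, 5 and 6, and 173, 171, 125 and 162 in young mice 3, 4, 7 and 8. The lowest old mouse was barely above the highest young mouse, and the log2 fold change was 0.23 (SE 0.12, 95% interval -0.05 to 0.51, limma adjusted p = 0.425). Its receptor Tnfrsf9 gave -0.25 (SE 0.15).

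In the best known pairs of this group every estimate lay within its error of 0 at the 95% level. Cd40, the B cell and dendritic cell receptor for T cell help, gave 0.16 (SE 0.15, 95% interval -0.20 to 0.51), and its ligand Cd40lg gave 0.14 (SE 0.27). Cd27, a receptor of memory lymphocytes, gave 0.26 (SE 0.98) with signals from 11.2 to 125 within the old group alone, and its ligand Cd70 gave 0.51 (SE 0.32). Tnfrsf4 (OX40) gave 0.27 (SE 0.21), Tnfrsf18 (GITR) 0.20 (SE 0.29) and Tnfrsf8 (CD30) 0.05 (SE 0.21). The ligands Tnfsf8, which binds CD30, and Tnfsf14, which binds HVEM, gave -0.15 (SE 0.17) and -0.12 (SE 0.51). The intervals of Cd27, Cd70, Tnfsf4, Tnfrsf14 and Tnfsf14 include 0 and reach past a fold of 2, so that a change of that size could have been missed in them. T cell markers were positive in 9 of 9 measured (11 listed), at a median of 0.52. Of these 5 were higher at an unadjusted p under 0.05, beside 7.23% of all genes. The T cell receptor subunits Cd3d at 0.87 (SE 0.22) and Cd3g at 1.0 (SE 0.25) had no overlap, as had 4.95% of all genes in that direction. The summed T cell marker signal, much of it Thy1, lay between 2350 and 2828 in old mice and between 1837 and 2510 in young mice. The part of T cells in this group was not tested.

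The remaining receptors bind ectodysplasin or are orphans. Eda2r, which binds the A2 form of ectodysplasin, gave 110.5, 110.5, 99.6 and 123 in old mice 1, 2, 5 and 6, and 164, 151.5, 127 and 121 in young mice 3, 4, 7 and 8. In 3 old mice the signal was below all young mice, old mouse 6 lay just above young mouse 8, and the log2 fold change was -0.34 (SE 0.12, 95% interval -0.62 to -0.06, limma adjusted p = 0.265). Relt, a receptor of blood and lymphoid cells, gave 173.5, 212, 251 and 207 in the old mice and 145, 182, 167 and 185 in the young mice. Old mouse 1 lay within the young range, and the log2 fold change was 0.31 (SE 0.13, 95% interval 0.003 to 0.62, limma adjusted p = 0.34).

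The other receptors of this group gave small estimates with intervals around 0. Tnfrsf19 (TROY), a receptor of epithelial progenitors, had means of 1949 ± 223 in old and 1832 ± 276 in young mice (SD, n = 4 each), at 0.10 (SE 0.13, 95% interval -0.21 to 0.40). Tnfrsf21 (DR6), a death domain receptor, had means of 2221 ± 256 and 2090.4 ± 281, at 0.09 (SE 0.13, 95% interval -0.20 to 0.38). Edar, the ectodysplasin receptor of skin appendages and glands, gave -0.05 (SE 0.35, 95% interval -0.87 to 0.76). The non-coding Tnfsf13os gave 0.03 (SE 0.12).

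Family genes that the symbol rule leaves out were looked up for completeness, and 1 of 5 was higher at an unadjusted p under 0.05, beside 7.23% of all genes. This was Ltb, the lymphotoxin subunit that shapes lymphoid tissue, at 182, 159, 234 and 354 in old mice 1, 2, 5 and 6, and 166, 98.4, 88.2 and 103 in young mice 3, 4, 7 and 8. Old mouse 6 was again the highest and old mouse 2 lay below young mouse 3, at a log2 fold change of 1.0 (SE 0.29, limma adjusted p = 0.182). The median of the 5 genes was 0.02.

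Signaling genes downstream of the receptors were taken from lists of adaptors, kinases and ubiquitin enzymes, NF-kappaB subunits, feedback inhibitors, death effectors and NF-kappaB targets, of which 62 of 70 were tested. At an adjusted p under 0.05, 1 rose and 0 fell, and 15 were higher and 0 lower by an unadjusted p under 0.05, beside 7.23% and 7.29% of all genes. The median log2 fold change was 0.08. In the signaling machinery itself, 0 of 9 adaptors and 0 of 15 kinases and ubiquitin enzymes reached an unadjusted p under 0.05, with medians of 0.04 and -0.02. Among 7 death effectors Casp8, the initiator caspase of death receptors, was the only one, at 0.15 (SE 0.06, limma adjusted p = 0.34).

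NF-kappaB targets held 11 of the 15, with 16 of 17 positive and a median of 0.53. The lists were set with earlier results of these data known, so this share is a description and not a test of the pathway. Vcam1, the adhesion molecule by which activated endothelium holds lymphocytes, rose by 0.78 (SE 0.11, limma adjusted p = 0.0368): it gave 1466, 1535, 1337 and 1514.5 in old mice 1, 2, 5 and 6, and 952, 953, 767 and 757 in young mice 3, 4, 7 and 8, with no overlap. Its adjusted p was above 0.05 when any 1 mouse was left out. The matrix protease Mmp9 gave 1.31 (SE 0.21, limma adjusted p = 0.0585), the prostaglandin synthase Ptgs2 gave 1.37 (SE 0.27, limma adjusted p = 0.085) and the cytokine Il1b gave 0.85 (SE 0.18, limma adjusted p = 0.106). Cxcl2, a chemokine for neutrophils, gave 0.58 (SE 0.12, limma adjusted p = 0.0964). The chemokine Ccl20, which draws dendritic cells and lymphocytes, gave 442, 794, 599 and 639 in the old mice and 122, 196, 44.4 and 243 in the young mice, at 2.26 (SE 0.51, limma adjusted p = 0.116). In these the old mice lay above the young mice throughout.

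Of the other lists, the 4 NF-kappaB subunits tested were all positive, with a median of 0.42. Rel, the subunit c-Rel of lymphocytes and myeloid cells, gave 0.83 (SE 0.17, limma adjusted p = 0.0959). Nfkb2 gave 0.57 (SE 0.39), Relb 0.27 (SE 0.13) and Rela, which most cells use, 0.10 (SE 0.12). Of 10 feedback inhibitors, Nfkbie gave 0.74 (SE 0.24) and Tnfaip3, the enzyme A20, gave 0.41 (SE 0.12), and Nfkbia, which holds NF-kappaB in the cytoplasm, gave 0.01 (SE 0.11). Several of these targets are also leukocyte genes. Of 6 neutrophil markers (8 listed) 3 were higher at an unadjusted p under 0.05, beside 7.23% of all genes. These were S100a8 at 1.88 (SE 0.42), S100a9 at 1.98 (SE 0.33) and Csf3r at 1.95 (SE 0.59). Mpo gave -0.06 (SE 0.19), Elane -0.13 (SE 0.58) and Cxcr2 0.44 (SE 0.97). The summed signal lay between 865 and 2175.5 in old mice and between 397 and 710.5 in young mice. The part of leukocyte number in the target list was not tested.

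**Figure D5:**
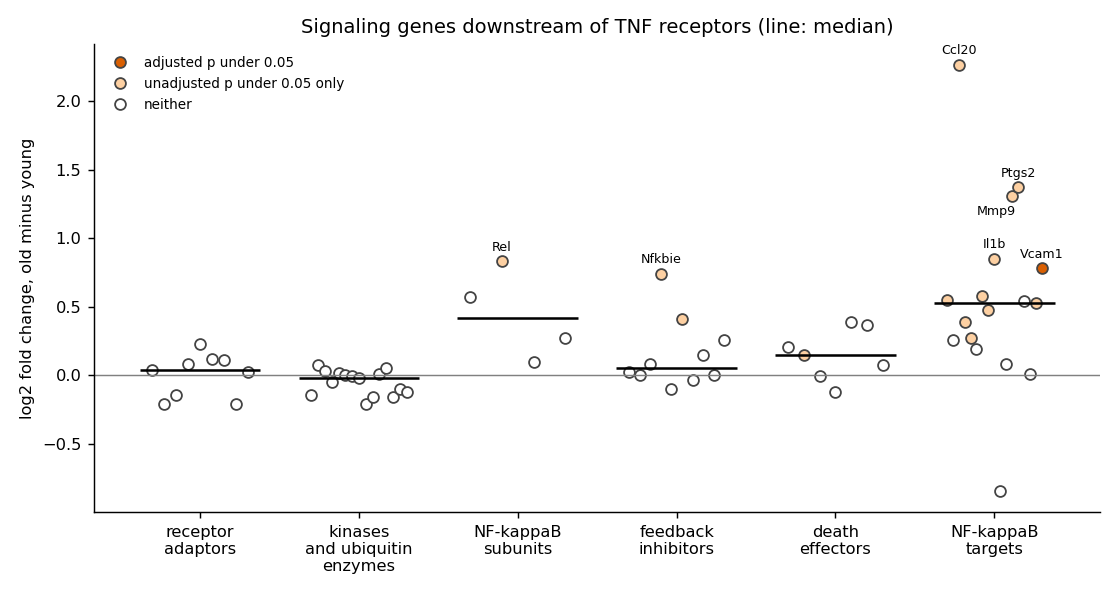
Log2 fold change of old minus young mice (y axis) for the 62 signaling genes in 6 lists (x axis), with 1 point per gene and a line at each list's median. Dark orange marks an adjusted p under 0.05 (Vcam1), light orange an unadjusted p under 0.05 alone and white neither. Of the 15 coloured points 11 are NF-kappaB targets, in lists set with earlier results of these data known.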

How the data were processed

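The authors deposited 1 intensity value per probe set and array, on a linear scale, for 45101 probe sets. The methods name robust multichip analysis in Partek, but every array has a mean of 500.002 with 2% trimmed at each end, as signals of single arrays have after scaling to a target. How they were made stays unsettled, the second factor of the study's analysis of variance is not named, and the study's own normalization and model could not be repeated.

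Control probe sets (64) were dropped, and the intensity was taken to log2 without a floor. The ages were compared in limma 3.58.1 (lmFit, eBayes, two-sided, age alone) in R 4.3.3, with Benjamini-Hochberg adjustment. The fits were tested on simulated data. Symbols came from the platform annotation (1 symbol for 34945 probe sets, several for 932, none for 9160). A gene took its probe set with the highest mean log2 signal, immunoglobulin probe sets aside, so Jchain is not among the 18172 genes.

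Members and lists were chosen with earlier results of these data known, and the immediate early and heat shock lists were added after seeing the data. Values per mouse are given for members at an unadjusted p under 0.05 or without overlap, all probe sets of Tnfrsf12a and Tnfrsf1b, and the partners of strongly ranked members. For the other members ranges and counts are given. From each signaling list up to 6 genes with the smallest p are named, among those at an unadjusted p under 0.05. Rela, Relb, Nfkb2, Nfkbia and the marker genes named were chosen after their values were seen. Promoters (28 of the 37 members had an entry) are reference sequence from RefSeq on GRCm38.p6, searched on both strands. The alternatives are a trended and robust prior, no moderation, array weights, only the brighter of 2 equally large sets of genes, quantile normalization, median centring, a block of mouse numbers, probe sets without _x_at, _s_at or _a_at, the mean of a gene's probe sets, floors of 32 and 64, and leaving out each mouse.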

Additional observations from a re-analysis of the deposited data

How the results depend on the processing

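No paired analysis was possible because old and young mice share no mouse number. Leaving out 1 mouse at a time gave 0 to 1 members higher at an adjusted p under 0.05, 1 to 4 at the methods' thresholds, 0 to 0 signaling genes and 0 to 2 of the 4 probe sets of Tnfrsf12a and Tnfrsf1b, with log2 fold changes of 1.12 to 1.30 for Tnfrsf12a and 0.51 to 0.61 for Tnfrsf1b. At an adjusted p under 0.05, 1 member was left, Tnfrsf12a, without moderation, with array weights, with median centring, without probe sets ending in _x_at, _s_at or _a_at and with the mean of a gene's probe sets. The methods' thresholds called 1 member, Tnfrsf12a, among the brighter genes and with a floor of 64. Tnfrsf1b lost its call at 0.57 without moderation, with median centring, with the block of mouse numbers and without those probe sets, at 0.56 with array weights and at 0.29 with the mean of probe sets. Signaling genes higher numbered 6 with the trended prior, 3 among brighter genes, 2 with median centring and with either floor, and 0 without moderation and with the mean of probe sets, against 1. The 4 probe sets had 3 calls with the trended prior, among brighter probe sets and with a floor of 32, 2 with array weights and a floor of 64, and 0 without moderation and with the block, against 1. Tnfsf13b passed with the trended prior (adjusted p = 0.0113), among brighter genes (0.00979) and with the block (0.0463), and 3 members were called with the first 2 of these. Tnfrsf10b turned to 0.15 with the mean of its probe sets. No member or signaling gene was lower at an adjusted p under 0.05 in any of these settings. The cause of these differences was not tested. Over all genes, the number higher at an adjusted p under 0.05 was 61, and ran from 5 without old mouse 2 to 253 with the trended prior. Dim probe sets scattered widely between mice and the deposited values hold no detection call. Small changes in such probe sets could have been missed.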
